A study of Saccharomyces cerevisiae with 4 samples.

Results

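The transcriptome of wild-type Saccharomyces cerevisiae growing in the rich medium YPD was read from the 2 arrays labelled wild-type among the 4 arrays of the series. The strain on both was YCB617, of the FY laboratory background. All 9275 yeast probe sets among the 9335 on the array were taken, and 5656 genes had at least 1 probe set that named no other gene. The series also holds 2 arrays of an hst3hst4 mutant, which were not used here. The labels give no mating type, auxotrophic marker, cell density or harvest time for YCB617, and the series' design describes the cultures of each strain as independent. They are called culture 1 and culture 2 here by the replicate numbers in the labels, and they have no order. The hybridised material was biotin-labelled RNA made by 1 round of oligo-dT-primed T7 amplification of total RNA, which had been isolated by hot acid phenol and an RNeasy kit, and each culture was read on its own 1-colour Affymetrix array.

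Budding yeast given plenty of glucose ferments it to ethanol through glycolysis even in the presence of oxygen, and represses the genes for respiration of other carbon sources. Fast growth calls for ribosomes, and messengers for ribosomal proteins, translation factors, glycolytic enzymes and cell wall proteins are among the most abundant in such cells. When glucose runs short or cells meet heat, salt or oxidants, the transcription factors Msn2 and Msn4 turn on a broad set of stress genes, among them those that make the storage carbohydrates trehalose and glycogen. Genes for meiosis and spore formation are kept off in vegetative cells.

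The deposited value of a probe set is a linear signal, scaled by array. With 2% trimmed from each end the mean was 150.2 on both arrays, and the medians were 37.9 and 38.3. The brightest yeast signal was 13757.7 in culture 1 and 16367.9 in culture 2. Signals of the 9275 probe sets in the cultures had a Pearson correlation of 0.971 on the log2 scale and a Spearman correlation of 0.966, given as descriptions because the probe sets share each culture's RNA and hybridisation. The ratio of 3′ to 5′ probe sets of ACT1, a measure of how far the labelled RNA reaches, was 1.70 in culture 1 and 1.88 in culture 2. That of the TATA-binding protein was 4.64 and 5.20, and that of SRB4 was 1.87 and 1.63, so neither culture was higher in all 3. A gene's brightness is the mean over both cultures of log2(signal + 3.1), as a percentile over the 5656 genes, and a difference is culture 2 minus culture 1 on that scale, which understates differences of dim genes. Probe sets also differ in affinity, so the order of brightness is one of signal on the array and not of transcript number between genes. With 2 arrays of 1 group there is nothing to test against, and no p-value is given.

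The brightest 10% of genes held 69.9% of the summed signal, while the dimmer 50% of genes held 5.22%. The brightest 10% was 566 genes, of which 525 were in the brightest 10% in each culture taken alone, and 564 were protein-coding. At its lower edge, QCR8, a subunit of the cytochrome bc1 complex, was just inside with signals of 546.5 and 418.8 in cultures 1 and 2, and COS4, of a subtelomeric family, was just outside with 474.9 and 480.2. The dimmest 20% was 1131 genes, 951 of them in each culture alone. YCG1, a condensin subunit, was just inside it with signals of 15.3 and 28.6, and RIM20, of the alkaline pH response, was just outside with 23.6 and 18.8. Between the 40th and 60th percentiles lay 1131 genes called middling here, with signals from about 43.8 to 86.5.

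Background was read from 19 bacterial and mouse probe sets whose targets were not added to the RNA as hybridisation controls. Their median signal was 1.9 in culture 1 and 3.3 in culture 2, and their highest was 9 and 20.1. Of the 5656 genes, 656 (11.6%) were no brighter than the brightest of these probe sets, and 131 (2.32%) were no brighter than their median. The 4566 genes (80.7%) above the highest of them on both arrays stood clear of that background in each culture. A signal inside that range shows that a transcript was not distinguished from background, not that it was absent.

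**Figure D1:**
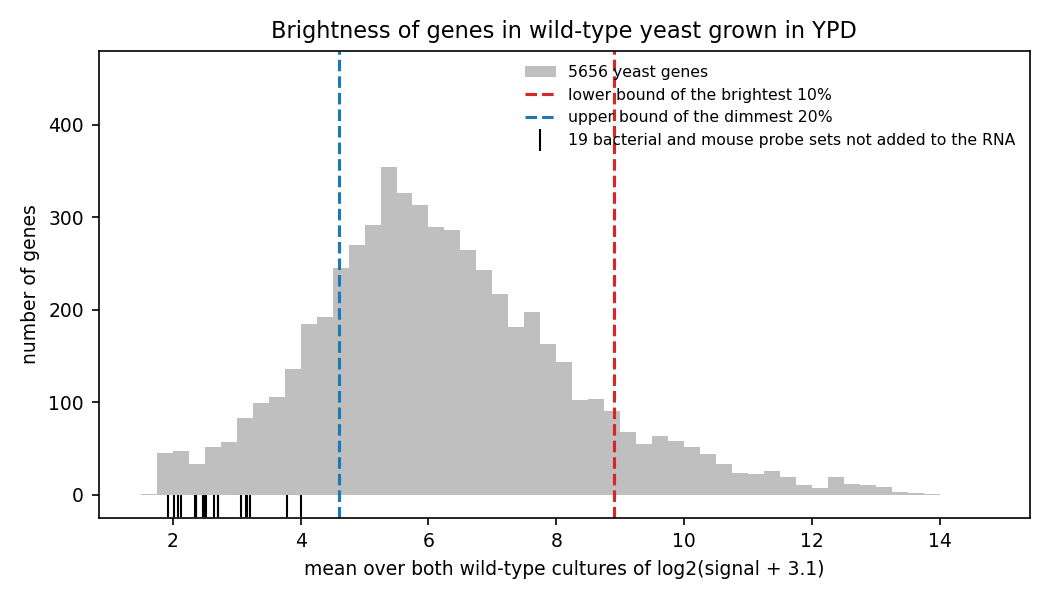
Number of genes (vertical axis) by brightness, the mean over both wild-type cultures of log2(signal + 3.1) (horizontal axis). The dashed lines bound the dimmest 20% and the brightest 10%, and the ticks under the axis are the 19 bacterial and mouse probe sets, all of which lie below the upper bound of the dimmest 20%.

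The brightest gene was CCW12, which encodes a mannoprotein of the cell wall (chromosome XII, 369697 to 370098 in the R64 assembly), with signals of 12583.8 in culture 1 and 15324.1 in culture 2. YDR524C-B, an uncharacterised small open reading frame, followed with 11972.8 and 14524.3. The other 13 of the 15 brightest genes were ribosomal proteins (RPS21B, RPS22A, RPS21A, RPL21B, RPS0B, RPS26A and RPP0), glycolytic or fermentative enzymes (TDH3, PGK1, ADH1 and CDC19) and cytosolic Hsp70 chaperones (SSA1 and SSA2). SSA1 had signals of 10486.7 and 11725.8. In all 15 the signal was higher in culture 2, by a log2 difference of 0.28 for CCW12, and the whole brightest 10% had a median difference of 0.12 against 0.04 over the genes compared. In 10 equal groups by brightness, the medians of the 8 groups between the dimmest and the brightest lay between 0.01 and 0.04, and that of the dimmest was -0.05.

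Cytosolic ribosomal proteins, the protein part of the translating ribosome, formed a narrow and bright group. Of 137 listed, 80 had a probe set of their own, since many are encoded by near-identical gene pairs. Of these 80, 76 were in the brightest 10% and none was in the dimmest 20%, with a median percentile of 98.6. The brightest was RPS21B, at 10632.6 and 12819.3, and RPS22A, at 9800.4 and 12687.7, came next. The 2 dimmest were RPL15B, at 195.9 and 253.2, and RPL7B, at 247 and 208, so that even these exceeded the middling genes in both cultures. Signals were above 1000 on both arrays for 73 of the 80. On the array, 30 of the 80 were read by probe sets whose name marks possible hybridisation to related sequences, and their signals may include the paralogue.

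Other parts of the translation machinery were bright but spread wider. Of 31 translation factors, 15 were in the brightest 10%, led by YEF3, the fungal elongation factor eEF3, at 6861.5 and 7741.1, and HYP2, or eIF5A, at 5194.9 and 6512. TIF4632, a minor form of the scaffold eIF4G, was the dimmest at 26.4 and 23.8. Of 18 aminoacyl-tRNA synthetases, which charge tRNAs with amino acids, 13 were in the brightest 10%, with FRS1 at 2981.1 and 3521.3 and GLN4, the dimmest, at 168.4 and 147. Factors that build ribosomes stood apart from the ribosomal proteins themselves: 9 of 96 were in the brightest 10% and 20 were middling, with a median percentile of 69.7. NOP58, a core protein of box C/D snoRNPs, was the brightest of them at 2621.2 and 3075.5, and UTP6, of the small subunit processome, was among the dimmest at 22.8 and 25.1. RNA polymerase subunits had a median percentile of 77.3, from RPB8, shared by all 3 nuclear polymerases, at 1029.5 and 1243.8 to RPC17, of RNA polymerase III, at 40.6 and 41.5. The mitochondrial ribosome was dimmer still. Of its 68 proteins, none was in the brightest 10%, 21 were middling and 4 were in the dimmest 20%, with a median percentile of 58.4, from MRPS12 at 357.2 and 362.2 to RSM23 at 9.9 and 20.2.

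Glycolysis and fermentation had the highest median percentile of the 61 gene lists, 98.9, with 17 of 20 members in the brightest 10%. TDH3, the main glyceraldehyde-3-phosphate dehydrogenase, had signals of 10091.7 in culture 1 and 11137 in culture 2, and PGK1, phosphoglycerate kinase, had 8570.4 and 9722.5. The members outside that group were minor isozymes. The pyruvate kinase PYK2 was middling at 96.6 and 49.3, against 8153 and 8657.6 for its major counterpart CDC19. PDC6, a minor pyruvate decarboxylase, was in the dimmest 20% at 1.1 and 10.9, PDC5 stood at 141.3 and 156.8, and the major form PDC1 at 6583.2 and 7248.8. Sequences shared between isozymes can add to each other's signal, which was not tested.

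Hexose transporters split into bright and dim members, 5 of 12 in the brightest 10% and 5 in the dimmest 20%. HXT3, a low-affinity transporter induced by glucose, had 3018.8 and 2273.9, HXT6, a high-affinity one, had 3065.4 and 1577.4, and HXT1, another low-affinity one, had 1154.7 and 1007.4. HXT6 and the nearly identical HXT7, at 2413.9 and 1375, cannot be told apart with certainty on this array. The glucose sensor RGT2 was dim at 11.1 and 20.5, and HXT14 was at 0.5 in each culture.

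Many genes for using other carbon sources were dim, though not all. Of 12 genes for galactose, maltose and sucrose use, 6 were in the dimmest 20%. GAL1, the galactokinase that is repressed in glucose, had signals of 8.4 and 8.3, GAL10 had 10.7 and 2.5, and the repressor gene GAL80 stood apart with 214.9 and 275. Gluconeogenesis and the glyoxylate cycle, needed for growth on ethanol or acetate, had 8 of 13 genes in the dimmest 20% and a median percentile of 13.7. The isocitrate lyase gene ICL1 had 36.2 and 39.1, the gluconeogenic PCK1 had 11.6 and 19, the lactate permease JEN1 had 4 and 1.9, and MDH2, a cytosolic malate dehydrogenase, was the brightest at 352 and 340.2. Peroxisome and beta-oxidation genes had 19 of 41 in the dimmest 20%, with the fatty acyl-CoA oxidase POX1 at 12.1 and 22.2. The mitochondrial pathways were brighter. The TCA cycle had 8 of 15 genes in the brightest 10%, with MDH1, mitochondrial malate dehydrogenase, at 1170.4 and 1056, and none in the dimmest 20%. The nuclear genes of the respiratory chain and ATP synthase had a median percentile of 84.4 and none in the dimmest 20%, from NDE1, an external NADH dehydrogenase, at 928.2 and 1303.7 to CYC7, a minor cytochrome c, at 58.6 and 13.6.

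Of the 8 proteins encoded in the mitochondrial genome, 2 were in the brightest 10% by their brightest probe set. OLI1, a subunit of the ATP synthase membrane ring, had 1728.7 and 1578.1, and COX1, of cytochrome oxidase, had 1000.1 and 873. Their further probe sets were dim, at 0.6 and 0.7 for OLI1 and at 12.9 and 17.3 and at 5.5 and 5.4 for COX1, so the brightness of both genes rests on 1 probe set each. The other 6 genes were in the dimmest 20%, among them COX2 at 9.5 and 9.4, COX3 at 11.3 and 15.4, COB at 9.2 and 18.1, and the ribosomal protein gene VAR1 at 3.7 and 0.5. Yeast mitochondrial messengers have no poly(A) tail of the nuclear kind, and the amplification used an oligo-dT primer. The part of priming in these values was not tested.

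Cell wall and membrane upkeep gave a bright group. Of 43 cell wall proteins and enzymes, 23 were in the brightest 10% and 6 in the dimmest 20%. After CCW12 came CWP2, a GPI-anchored mannoprotein, at 6880.1 and 7321.6, and the glucan synthase FKS1 stood at 2290.9 and 2462.8. Flocculins, which make cells clump, were the dimmest, with FLO1 at 0.9 and 1 and FLO5 at 3.6 and 6.9. The plasma membrane proton pump PMA1 had 3697.3 and 3917.6, and the vacuolar proton pump subunit VMA3 had 3746.8 and 4056.7. Of the 16 proton pump genes, 12 were in the brightest 10%. The ergosterol pathway, which makes the sterol of fungal membranes, had 11 of 25 genes in the brightest 10%. Its brightest was ERG25, at 1765.6 and 2239.6, and its dimmest was the regulator UPC2, at 21.2 and 18.4.

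Biosynthesis and protein quality control lay mostly in the upper range. Chaperones had 18 of 32 members in the brightest 10%. The proteasome had 11 of 33 and none in the dimmest 20%, with a compact spread from PUP3 at 794.6 and 784.8 to its transcription factor RPN4 at 90.6 and 99.1. Purine and pyrimidine synthesis had 16 of 28 in the brightest 10%, with the IMP dehydrogenase IMD4 at 1612.8 and 1717.4, but ADE4, which catalyses the committed step of purine synthesis, was at 14 and 11.1. Amino acid synthesis had 27 of 64 in the brightest 10% and 3 in the dimmest 20%, led by LEU2 at 2873.2 and 2875.4 and HOM6, homoserine dehydrogenase, at 2102.2 and 2421. Genes of methionine and sulfur metabolism had a median percentile of 45, with CYS3, cystathionine gamma-lyase, at 1813.3 and 2171.8 against 1.6 and 12.5 for SUL1, a sulfate permease.

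Genes commonly deleted as auxotrophic markers covered the whole range. HIS3, of histidine synthesis, was at 0.3 and 0.5, among the dimmest genes on the array, and URA3, of uracil synthesis, was at 4.6 and 9.9. LEU2, for leucine, was among the brightest genes as given above, by its brightest probe set. Its further probe sets were unlike, at 1231.5 and 1058.9 and at 9.6 and 24.9. MET17 had 807.9 and 1048.9, ADE2 had 396.2 and 379.2, TRP1 had 342.1 and 211.2, LYS2 had 139.7 and 168.9, and the arginine permease CAN1 had 97.6 and 161.7. The second HIS3 probe set gave 0.3 and 0.4, and neither was brighter than the brightest of the background probe sets. A control probe set for URA3 on the same array gave 12.5 and 18.1, slightly brighter on average than the brightest of the background probe sets. The labels give no marker genotype to set beside these values.

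**Figure D2:**
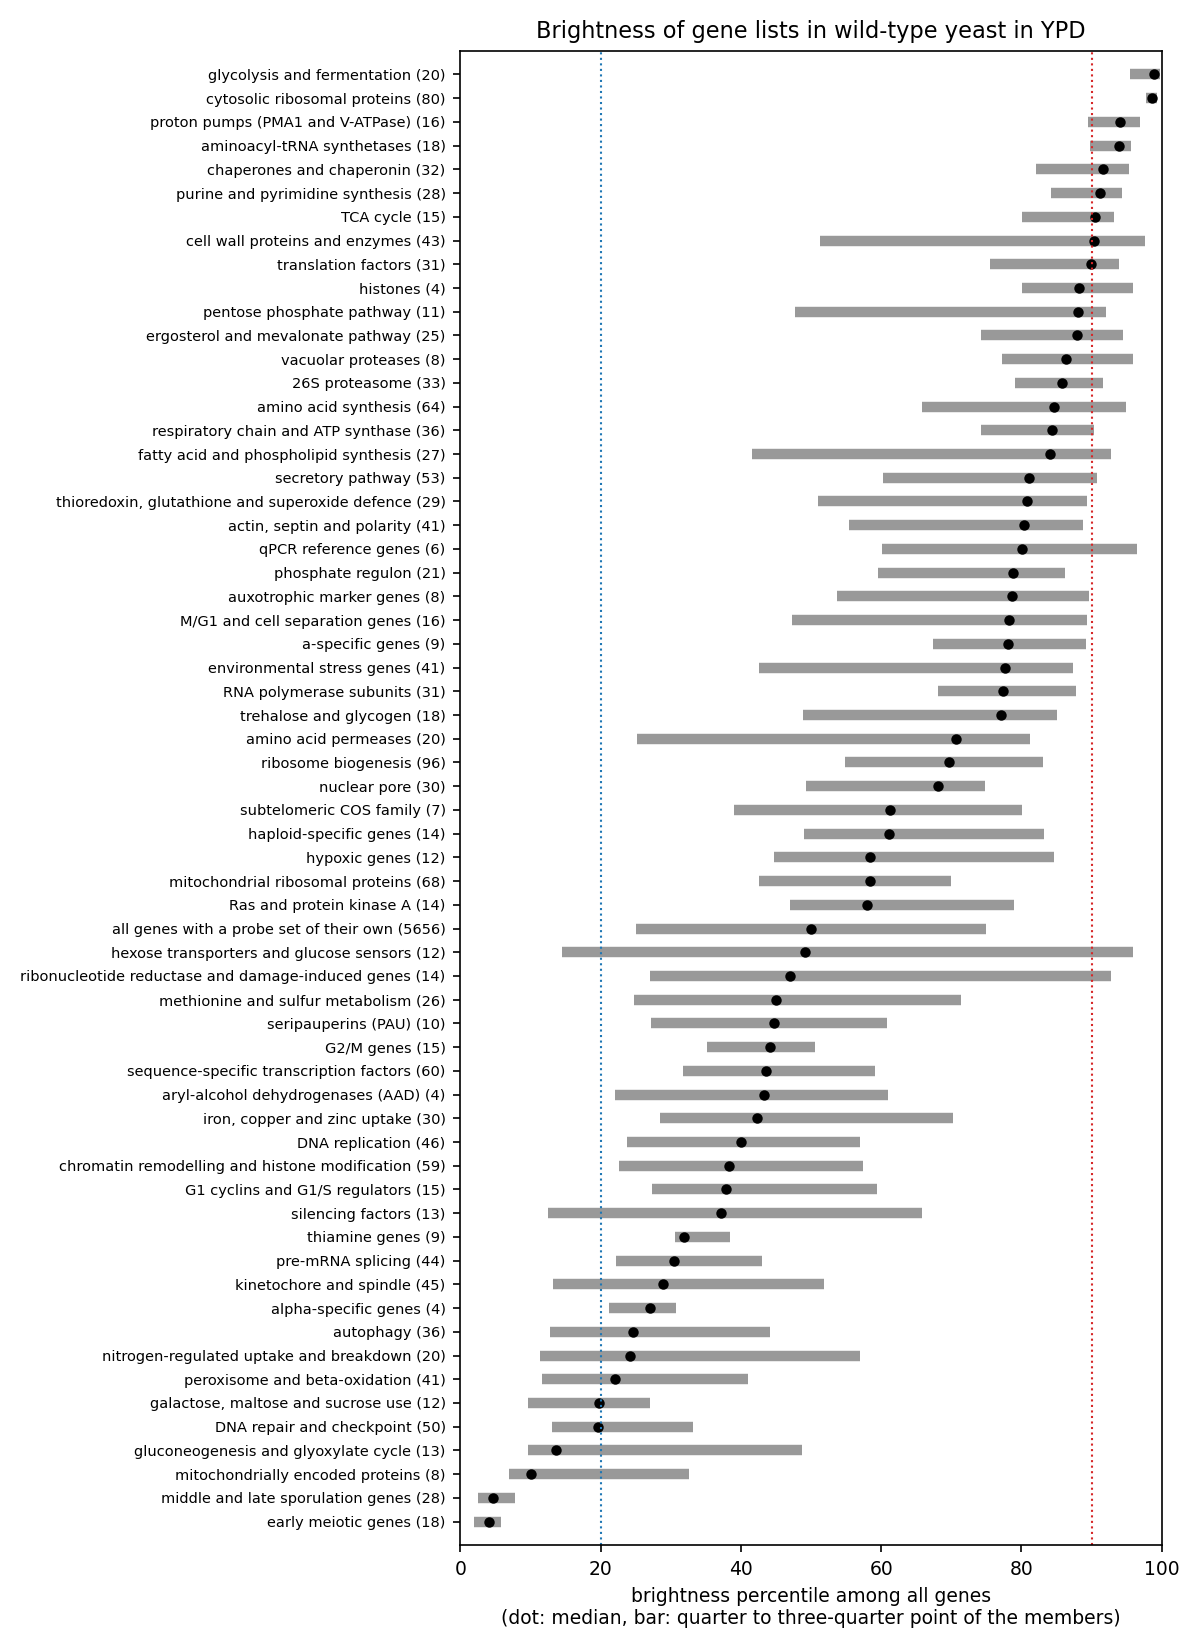
Brightness percentile of the members of 61 gene lists and of all genes in wild-type yeast in YPD, with the number of measured members in brackets. Dots are medians and bars run from the 25th to the 75th percentile of the members, and the dotted lines mark the dimmest 20% and the brightest 10%. Glycolysis and ribosomal proteins sit at the right edge and meiotic and sporulation genes at the left.

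Genes that control and copy the genome were middling or dim. DNA replication had a median percentile of 40.1, with 13 of 46 genes middling and none in the brightest 10%, from RFA3, a subunit of the single-strand binding protein RPA, at 307.7 and 335.6 to the initiation factor SLD2 at 1.3 and 1. DNA repair and checkpoint genes were dimmer, with 26 of 50 in the dimmest 20% and a median percentile of 19.6. RAD23, of nucleotide excision repair, was the brightest of them at 247.1 and 319.7 and RAD52, of homologous recombination, had 119.4 and 145.4, while the polymerase zeta subunit REV7 was at 4.8 and 4.3. Chromatin remodelling and histone modification had a median percentile of 38.3 and none of 59 in the brightest 10%. In the dimmest 20% it had 13 of 59, or 22.0%, near the share of all genes. Pre-mRNA splicing had a median percentile of 30.5, although SNU13, which is also a snoRNP protein, stood at 2139 and 2392.2. The kinetochore and spindle list had 16 of 45 in the dimmest 20%, with the tubulins TUB2, at 935.4 and 1065.8, and TUB1, at 869 and 960.9, as its brightest.

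Sequence-specific transcription factors had a median percentile of 43.6, with 16.7% in the dimmest 20%, which is below the share of all genes. Of the 60, 18 were middling, 10 were in the dimmest 20% and 1 was in the brightest 10%. That one was GCN4, the activator of amino acid synthesis, at 1652.5 and 1894.8. The Msn pair that controls stress genes lay between, MSN2 at 126.4 and 181 and MSN4 at 159 and 117.6. Both sirtuin genes that are deleted in the mutant strain of the series were dim in wild type. HST3 had 13.7 and 25.3 and HST4 had 3.6 and 0.9, each in the dimmest 20%, while the related SIR2 had 34.2 and 45.9 and HST1 had 171.4 and 217.3. The 4 histone genes that could be read singly were HTB1, at 1318.5 and 1356.6, HTB2, at 1075.1 and 1387.1, the H2A.Z gene HTZ1, at 233.9 and 209.4, and the linker histone gene HHO1, at 191.5 and 210.1. In the middle of the whole order lay STH1, the ATPase of the RSC remodeller, at 47.4 and 77.7, NUS1, of dolichol synthesis, at 59.5 and 61.9, and the tRNA gene YNCL0002C at 81.1 and 45.4.

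Genes of meiosis and spore formation were the dimmest lists. Of 18 early meiotic genes, 16 were in the dimmest 20% and the median percentile was 4.13. Of 28 middle and late sporulation genes, 26 were in the dimmest 20%, with a median percentile of 4.61. SPO11, which makes the breaks of meiotic recombination, had 0.5 and 0.6, the meiotic transcription factor NDT80 had 9.6 and 2, and GIP1, of spore wall formation, had 0.4 and 0.5. The few brighter members were RED1, of the meiotic chromosome axis, at 30.9 and 43.7, the inducer IME1, at 33.5 and 26.5, SPR6, at 119.1 and 133.9, and CDA2, at 95.3 and 101.3. The other probe sets of CDA2 were dim, at 1.3 and 1.9 and at 5.7 and 13.4, so its place here rests on its brightest probe set.

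The markers of a cells were brighter than those of alpha cells. The 7 a-cell markers summed to 4626.1 in culture 1 and 4434.3 in culture 2, and the 4 alpha-cell markers summed to 85.8 and 134.3. The a-factor genes MFA2 and MFA1 had 2095 and 2303.7, and 1441.1 and 1094. The protease gene BAR1 had 414.7 and 462.1, the alpha-factor receptor gene STE2 had 260 and 231.4, the a-factor exporter gene STE6 had 201.1 and 184.8, and the agglutinin gene AGA2 had 190.5 and 140.7. ASG7 was the dim member, at 23.7 and 17.6. Among the alpha-cell markers, MF(ALPHA)1 had 32.2 and 41.7, MF(ALPHA)2 had 24.4 and 27.2, SAG1 had 22 and 43.9, and the a-factor receptor gene STE3 had 7.2 and 21.5. The haploid markers were detected, with STE4, the beta subunit of the pheromone G protein, at 310.2 and 274.4, STE18, its gamma subunit, at 87.5 and 78.7, and GPA1, its alpha subunit, at 54.5 and 65.7. RME1, a repressor of meiosis, had 226.1 and 208.8, the kinase gene FUS3 106.3 and 84.6, the scaffold gene STE5 43.6 and 41.8, and the endonuclease gene HO 63.7 and 116.1. All 7 meiotic markers were in the dimmest 20% and summed to 29.5 and 29.8.

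Dim genes were more common near chromosome ends. Of the outermost 8 protein-coding genes at each end of the nuclear chromosomes, 145 of 256 had a probe set of their own, their median percentile was 30.5, and 37.9% of them were in the dimmest 20%, against 51.1 and 18.7% for the genes further in. For the outermost 4 genes, of which 46 were measured, 54.3% were in the dimmest 20%. From the 17th gene inward the share was between 15% and 19.1%. Many genes at the ends belong to repeated families, and the unmeasured ones have no values here. Brightness had little relation to gene length, with a Spearman correlation of -0.061 over 5486 protein-coding genes, given as a description, and the brightest 10% had a median length of 1032 bases against 1161 to 1374 in the 5 dimmest of 10 equal groups by brightness.

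**Figure D3:**
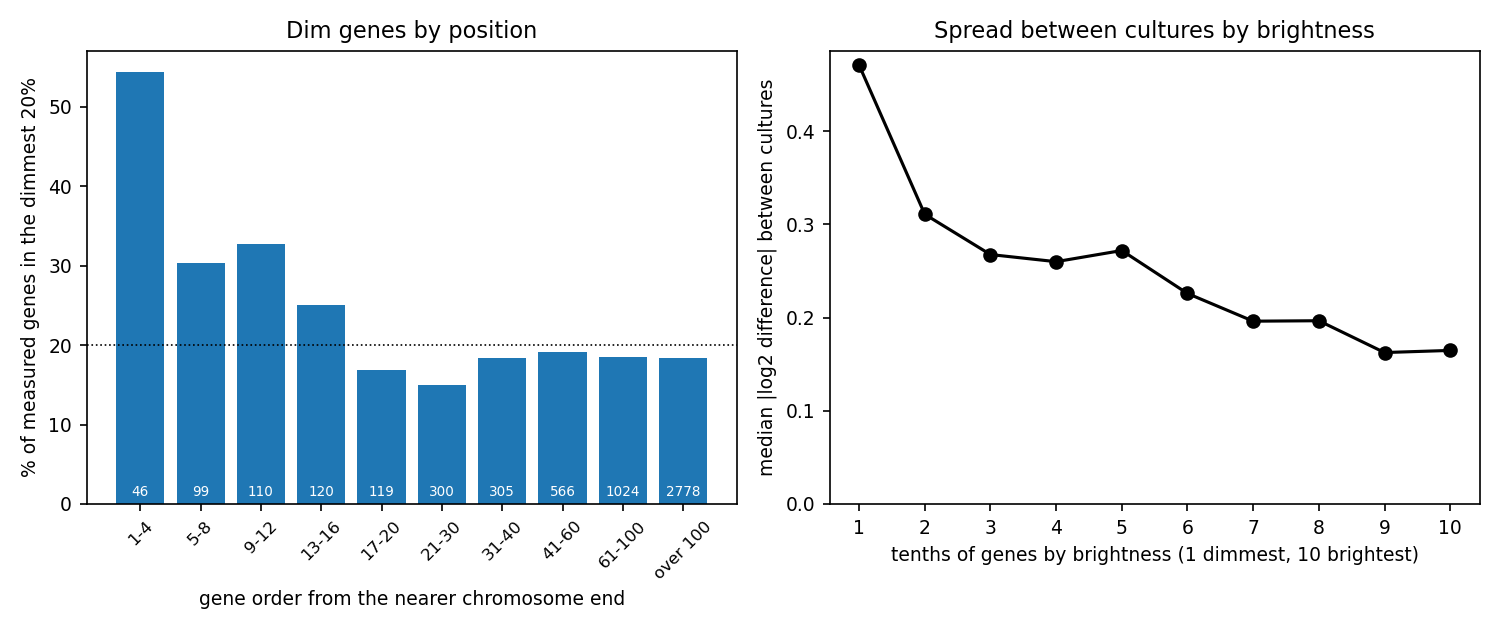
Left, percentage of measured protein-coding genes in the dimmest 20% by gene order from the nearer chromosome end, with the number of measured genes in each bar and a dotted line at 20%. Right, median absolute log2 difference between cultures for genes in 10 equal groups by brightness. The share falls from 54.3% in the outermost 4 genes to under 20% from the 17th inward, and the difference falls from 0.47 in the dimmest 10% to 0.16 in the brightest 10%.

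The cultures were then compared with each other. This difference has 1 array on each side, so it has no replicate check. Genes below a mean signal of about 9.01 were left out, which kept 5201 of 5656. Among these the median absolute log2 difference was 0.22, a fold of 1.17, and 4542 (87.3%) lay within 1.5-fold. Over all 5656 genes, those left out included, the spread was wider among dim genes. The median absolute difference was 0.47 in the dimmest 10% and 0.16 in the brightest 10%. Of the 5201 kept, 2872 (55.2%) were higher in culture 2 by any amount and 2312 (44.5%) were lower. At least 2-fold higher in culture 2 were 37 genes, 0.711% of the 5201, and at least 2-fold lower were 139, or 2.67%. In either direction that was 176 genes, or 3.38%. The larger group was therefore that lower in culture 2. Of the 37 higher genes, 18 had 1 signal below 9.3, the 20th percentile of the yeast signals and near background, and of the 139 lower genes 20 did. In a bulk culture, fewer cells of a kind and less RNA per cell cannot be told apart.

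The environmental stress genes lay on 1 side. Of 41 measured, 39 passed the filter on low signals, and the signal was lower in culture 2 in all 39, 22 of them at least 2-fold, against 44.5% and 2.67% of all genes. Their median difference was -1.26, or 2.39-fold lower in culture 2, beside 0.04 over all genes, and between -1.27 and -1.16 under the other scalings of the arrays. This list's difference between the cultures was known from earlier results of these data. The smallest differences were those of GPP2, a glycerol phosphatase, at 176.2 and 173.9, and TKL2, a minor transketolase, at 28 and 25.5. These are values of the brightest probe set of each gene. For TKL2 another probe set that passed the filter was higher in culture 2, at 13.8 and 23.2, and a further one gave 9.3 and 8.4. The side of TKL2 therefore depends on the probe set. GND2 and PHM7 fell below the filter, with signals of 19.4 and 2.9 and of 8.4 and 9.5.

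Enzymes of glycogen carried the largest differences in that list. GLC3, the glycogen branching enzyme (chromosome V, 133120 to 135234 in R64), had a signal of 467.1 in culture 1 and 52.5 in culture 2, a log2 difference of -3.08. The glycogen synthases GSY1, at 413.8 and 78, and GSY2, at 501.9 and 136.4, and the glycogen phosphorylase GPH1, at 365.4 and 95.9, which breaks glycogen down, were lower as well. Genes for synthesis and for breakdown of the polymer therefore lay on the same side. The initiators of glycogen chains differed from each other, with GLG1 at 60.9 and 22.3 and GLG2 at 31.2 and 50.9. PGM2, the phosphoglucomutase isozyme of the stress list, had 635.4 and 121.5, whereas its counterpart PGM1 had 301.1 and 305.5.

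Trehalose genes showed a similar split within the pathway. TPS2, trehalose-6-phosphate phosphatase, had 728.3 and 142.2, a difference of -2.33, and TSL1, a large subunit of the synthase complex, had 547.9 and 198.7. TPS1, the catalytic synthase, had 574.2 and 434.1, and TPS3, the other large subunit, had 272.2 and 279.3. Of the trehalases, NTH1 had 157.7 and 120.1, NTH2 had 48.3 and 63, and the vacuolar ATH1 had 18 and 23.2. Of the 18 genes of trehalose and glycogen, 13 were lower in culture 2 and 9 at least 2-fold, against 44.5% and 2.67% of all genes, with a median of -0.96. The list overlaps the stress list by 11 genes. The 7 others had a median of 0.04, with 2 lower in culture 2, of which GLG1 was at least 2-fold lower.

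Other members of the stress list were heat shock proteins, antioxidants and sugar kinases. HSP104, the disaggregase, had 545.9 and 309.3, HSP42, a small heat shock protein, had 542 and 250.1, HSP12, a membrane-associated one, had 752.7 and 543.6, and HSP26 had 85.2 and 48.1. The 7 heat shock chaperones of the stress list were all lower in culture 2, from -1.11 to -0.47, and 1 reached 2-fold. Of all genes 44.5% were lower and 2.67% at least 2-fold lower. The constitutive Hsp70 genes SSA1 and SSA2 were higher in culture 2, as given above, and the chaperone list had a median of 0.10, with 22 of 32 higher, against 55.2% of all genes. The largest difference toward culture 2 in that list was that of another Hsp70 gene, SSA3, at 1.34. SSA3 was the 1 chaperone at least 2-fold higher, against 0.711% of all genes, and the dimmest of the list. The culture 1 signal of SSA3 lay below 9.3, so its difference rests on a signal near background. CTT1, cytosolic catalase, had 41.9 and a near-background 9.8, and DDR2, a stress gene of unknown function, had 644.7 and 267.5. SPI1, a cell wall protein of starved cells, had 960.4 and 356.3.

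**Figure D4:**
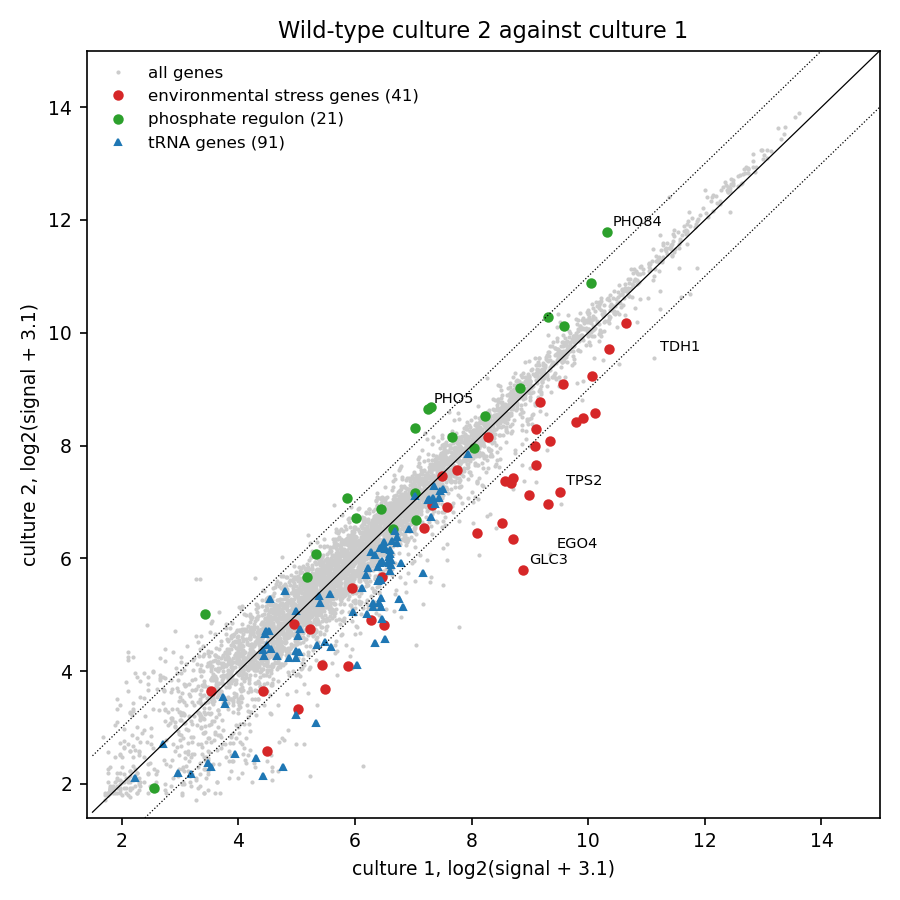
Signal of each gene in wild-type culture 2 against culture 1, both as log2(signal + 3.1). The solid line is equality and the dotted lines are 2-fold. Stress genes (red) lie on or below equality except PHM7, which did not pass the filter, most tRNA genes (blue) lie below it, and most phosphate genes (green) lie above it.

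The 15 largest differences toward culture 1, among genes above a signal of 9.3 on both arrays, took in the stress genes above and several genes in no list. EGO4 (YNR034W-A, chromosome XIV, 692561 to 692857 in R64) had the largest, with 650.9 and 64.3, a log2 difference of -3.28. TMA10, a protein that associates with ribosomes, had 216.7 and 24.5, and RGI1, of energy metabolism, had 737.2 and 122.3. The kinase gene YAK1, which opposes the growth signal of protein kinase A, had 275.9 and 63.5, a difference of -2.07, though its other probe sets gave -0.68 and -0.98. GCY1, a glycerol dehydrogenase, had 141.1 and 33.6, and YKR075C, uncharacterised, had 178.3 and 43. SNR6, the U6 spliceosomal RNA, had 128.7 and 18.9. Its culture 2 signal lay below the highest background signal of that culture, 20.1, although above 9.3. Of all 117 protein-coding genes at least 2-fold lower, 36 were in a list and 81 in none.

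Isozymes of central metabolism differed from each other between cultures. TDH1, a glyceraldehyde-3-phosphate dehydrogenase known mainly from stationary phase, had 2228.2 and 750.4, a difference of -1.57, while TDH3 differed by 0.14. Hexokinase HXK1 had 1103.7 and 379.2, a difference of -1.53, glucokinase GLK1 had 1070.9 and 600.6, and HXK2, the form that predominates in glucose, had 1548.2 and 1435. PYK2, given above, differed by -0.93. The 15 glycolytic genes other than TDH1, HXK1, GLK1 and PYK2 lay between -0.30 and 0.18, with ENO2 at 6404.2 and 6419.7 and GPM1 at 7449.9 and 7382.1. The median of the 19 glycolytic genes that passed was 0.07, and its sign turned to -0.11 with quantile normalization and to -0.05 with the brightness curve removed. HXT4, another hexose transporter, had 337.6 and 90.2, a difference of -1.87. In respiration, CYC7 (58.6 and 13.6) and COX5B (122.7 and 57.2), the isoforms induced by low oxygen, were lower in culture 2, whereas CYC1 had 147.9 and 274.2 and COX5A had 213.8 and 257.1. The culture 2 signal of CYC7 lay below the highest background signal of that culture, 20.1. The hypoxic gene list, which holds CYC7 and COX5B, did not share their side. Of its 12 genes, 8 were higher in culture 2, against 55.2% of all genes, and 4 were lower, with a median of 0.10.

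Markers of glucose-starved or stationary cells did not all follow the stress genes. The 8 summed to 1921.1 in culture 1 and 1120.6 in culture 2, most of it from SPI1 and HSP12. Of the 7 that passed the filter, 4 were higher and 3 lower in culture 2, against 55.2% and 44.5% of all genes. These counts were near the shares of all genes. At least 2-fold lower was 1 of the 7, SPI1, against 2.67% of all genes. ADH2, the alcohol dehydrogenase that consumes ethanol, had 48 and 88.9, the transporter HXT5 had 23 and 23.7, and ICL1 and PCK1, given above, were not lower in culture 2. HXT5 and ICL1 were close to equality. At 19, the culture 2 signal of PCK1 lay below the highest background signal of that culture, 20.1. The part of growth stage in the difference between the cultures was not tested, and the labels give no cell density.

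Most genes that respond to phosphate lay on the opposite side. Of 21 measured, 20 passed, 17 were higher in culture 2 and 3 lower, and 6 were at least 2-fold higher, against 55.2% of all genes higher and 0.711% at least 2-fold higher. The 3 lower genes were PHO87, PHM8 and PHO85. The median difference was 0.62, between 0.60 and 0.72 under the other scalings. In yeast, low phosphate stops the cyclin Pho80 and kinase Pho85 from inhibiting the activator Pho4, through the inhibitor Pho81.

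PHO84, the high-affinity phosphate transporter (chromosome XIII, 24037 to 25800 in R64), had a signal of 1271 in culture 1 and 3510.2 in culture 2, a difference of 1.46. PHO5, the secreted acid phosphatase, had 148.9 and 397.1, PHO81 had 128 and 312.7, and SPL2, which acts on the low-affinity transporters, had 55 and 130.7. All 4 subunits of the VTC complex, which makes vacuolar polyphosphate, were higher in culture 2. VTC3 had 154.7 and 409.9, VTC4 633.1 and 1240.2, VTC1 1051.5 and 1885.8, and VTC2 200.7 and 281.8. The sodium-coupled transporter PHO89 had 37.1 and 64.1. Low-affinity transporters were nearer equality, with PHO87 at 129.9 and 99.1, PHO90 at 450.1 and 519.5 and PHO91 at 126.9 and 140.6. Regulators were mixed, with PHO4 at 61.6 and 102.5, PHO80 at 33.3 and 48.1 and PHO85 at 260.4 and 246.3. PHM6 had 7.7 and 29.3, so that 1 of its signals was near background, and PHO2, a partner of Pho4, was near background in both cultures, at 2.8 and 0.7.

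The other genes at least 2-fold higher in culture 2 were mostly dim. Among those above a signal of 9.3 on both arrays, CDC9, the replicative DNA ligase, had 47 and 120.6, HSL7, of the morphogenesis checkpoint, had 33.4 and 82.1, YHP1, a repressor of M/G1 genes, had 34.4 and 74.1, and SPT21, an activator of histone genes, had 13.6 and 32.4. SEI1 (seipin, of lipid droplets) had 16.5 and 47.3, HLR1 had 23.9 and 61.7, PET18 had 9.6 and 30.1, SLM2 had 13.5 and 31.2 and YBR197C had 13 and 31.9. RPS28B was the bright exception, at 2657.8 and 5433.9, and its other probe set gave 1507.8 and 2849.4. The median signal of the 37 genes was 9.6 in culture 1 and 31.2 in culture 2, so many were near background in 1 culture. RNR1, the large subunit of ribonucleotide reductase, stopped short of 2-fold at 306.1 and 582.4. The DNA replication list had a median of 0.22, with 33 of 43 genes higher, against 55.2% of all genes. At least 2-fold higher was 1 of the 43, against 0.711% of all genes.

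**Figure D5:**
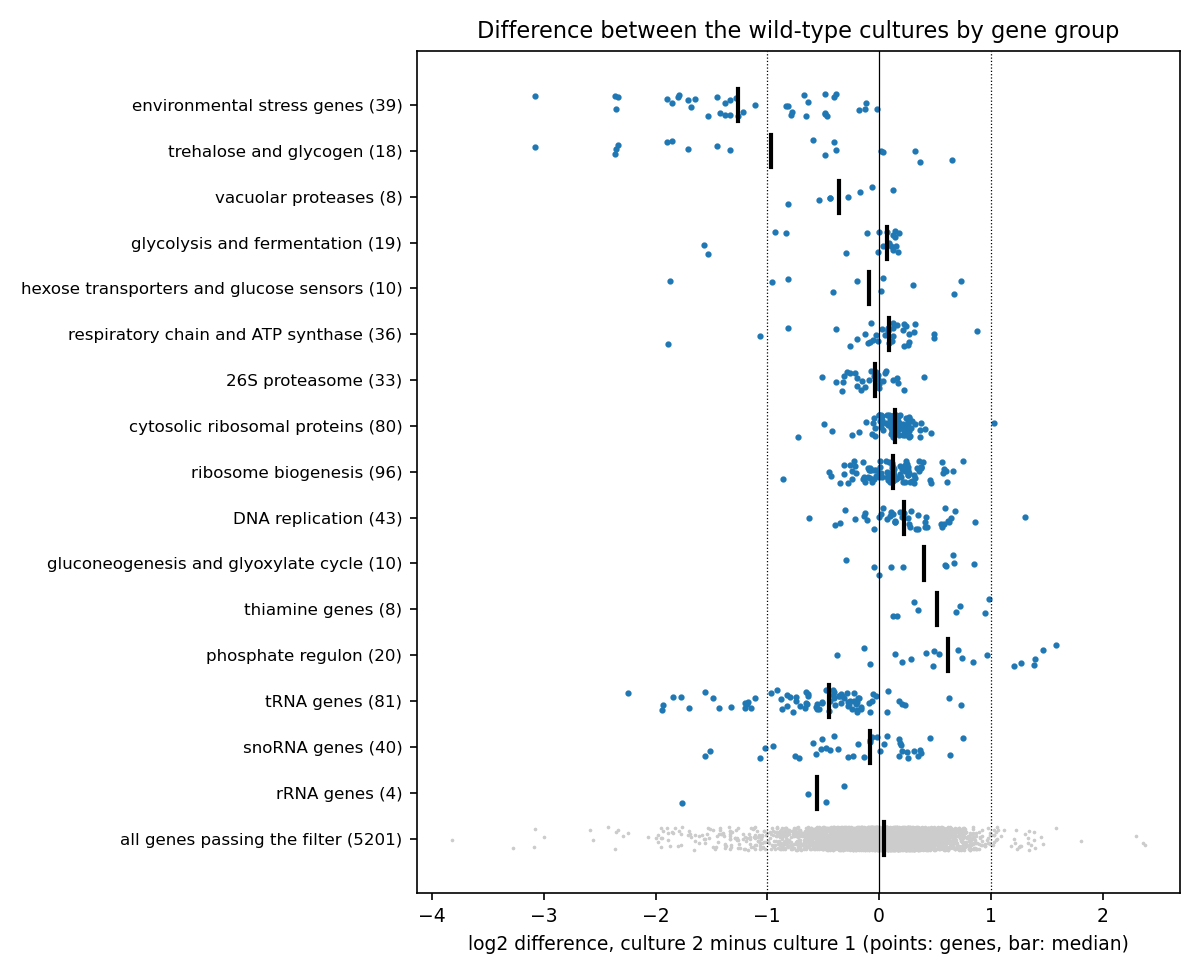
Log2 difference, culture 2 minus culture 1, of the genes that passed the filter in the groups named on the vertical axis and in all genes, with the number of genes in brackets. Points are genes, black bars are medians and dotted lines are 2-fold. Stress genes have a median of -1.26, tRNA genes of -0.45 and phosphate genes of 0.62, while ribosomal proteins, the proteasome and respiration centre near the median of all genes.

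Ribosomal proteins and most growth genes differed little. The 80 ribosomal proteins had a median difference of 0.14, with 67 higher in culture 2, against 55.2% of all genes, and the median lay between 0.04 and 0.24 under the other scalings. RPL37B, at 3747.7 and 2258.8, was the largest exception toward culture 1. Ribosome biogenesis had a median of 0.12, the ergosterol pathway 0.15 and the TCA cycle -0.13, each beside 0.04 over all genes, and none of these 3 lists had a gene at least 2-fold apart. The proteasome had a median of -0.03, which turned to 0.06 with the arrays scaled on hybridisation controls. The vacuolar proteases had 7 of 8 lower in culture 2, against 44.5% of all genes, with a median of -0.36 and none at 2-fold, led by the inhibitor gene PBI2 at 424.1 and 240.1. Thiamine genes were higher in culture 2 in 8 of 8, against 55.2% of all genes, with a median of 0.52 and none at 2-fold, and with THI4, of thiazole synthesis, at 10.7 and 24.1.

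Non-coding RNAs differed by class, with tRNA and rRNA genes mostly lower in culture 2. Of 299 tRNA genes, 91 had a probe set naming no other gene, and 81 passed. Of these 74 were lower in culture 2, 16 at least 2-fold, against 44.5% and 2.67% of all genes, with a median difference of -0.45 and median signals of 81.8 and 41.2. The largest among those above 9.3 on both arrays were YNCD0014C, at 88.5 and 20.8, and SUF10, at 62.5 and 14.1. The culture 2 signal of SUF10 lay below the highest background signal of that culture, 20.1. Of the 81, 79 were read by probe sets that mark shared or family sequences, so that they are not 81 separate measurements. All 4 genes annotated as ribosomal RNA were lower, with RDN25-1 at 550.7 and 159.7, RDN5-1 at 489.6 and 350.7, RDN5-3 at 286.6 and 230.3, and RDN18-1 at 17.7 and 10.3. The culture 2 signal of RDN18-1 was in the background range. The rRNA precursor gene RDN37-1, annotated in another class, had 955.7 and 561.1. Its further probe sets were lower in culture 2 too, except for that at 116.7 and 131.3. The array's own rRNA control probe sets were uneven. All 5 for 25S rRNA were lower in culture 2, with 748.4 and 257.9 on the brightest and 175.6 and 170.4 on the next. For 18S rRNA 2 of 5 were lower and 3 higher, with 127.4 and 155.4, 45.2 and 60.4, and 15.9 and 29.5 on the higher ones. Small nucleolar RNAs were divided, with 23 of 40 lower and 17 higher and a median of -0.08. Of 4 small nuclear RNAs, 3 were higher in culture 2 and SNR6, given above, was lower, with SNR14 (U4) at 15.9 and 24.1, SNR19 (U1) at 13.3 and 13.8 and SNR7-L (U5) at 7.1 and 13.4. Among the small nucleolar RNAs, SNR3 had 58.9 and 18 and SNR11 had 304.2 and 104.7. The RNase P RNA gene RPR1 had 36.7 and 38.9, and the telomerase RNA gene TLC1 had 80.9 and 69.7. tRNAs and rRNAs carry no stable poly(A) tail, and the part of priming or RNA purification in these values was not tested.

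Probe sets of the same gene gave a check on both measures. For the 315 genes with more than 1 probe set of their own, the brightness of the probe sets spanned a median of 2.07 on the log2 scale, or 4.21-fold. The percentile of such a gene therefore depends on the probe set that represents it. For genes with 1 probe set this dependence cannot be seen. Of the genes at least 2-fold apart between cultures, 9 had further probe sets, 32 in all, and 21 of these belong to YGR109W-B, the polyprotein gene of a Ty3 retrotransposon. Of the 11 probe sets of the other 8 genes, 10 had the same sign as the gene's brightest probe set and 2 also reached 2-fold. For YGR109W-B, 19 of 21 had the same sign and 0 reached 2-fold. Among the 571 further probe sets of the other genes, 334 (58.5%) had the same sign. UGA4, a permease for GABA, was an exception, with 7 and 46.5 on its brightest probe set and 18.1 and 6.8 on another.

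Probe sets outside the gene set were distributed otherwise. The 328 that name several genes had a median percentile of 75.4 and 43.3% of them were as bright as the brightest 10%. The 2443 with no gene listed had a median percentile of 22.4, with 45.7% in the range of the dimmest 20% and 4.58% in that of the brightest 10%. They are unnamed here, and no value of theirs is given to a gene.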

How the data were processed

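The table used here holds 1 linear intensity signal per probe set and array, as deposited by the authors. The submitters' processing notes name GCOS 1.4 and MAS5. The MAS5 version and scaling target were not given in the sources used here. Detection calls are not part of the table. Both wild-type arrays had the same trimmed mean, so scaling by array preceded deposit, and differences are relative to that mean. Low MAS5 values are noisy, because mismatch probes are subtracted.

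Of the 9275 yeast probe sets, 6504 had 1 gene in the platform annotation, 328 had several and 2443 had none. Symbols and positions come from the RefSeq table of assembly R64, and the brightest probe set represented a gene. The pseudocount of 3.1 is the 10th percentile of the signals, and the dimmest 20% of probe sets by mean log2 signal were left out of differences. Genes were counted at 2-fold, since 2 arrays of 1 group allow no test. The counting was tested on simulated data with less noise than the real arrays. Differences were planted there only in genes of middling or higher brightness, so the test does not cover false counts among dim genes. Values were computed with Python 3.11.15, numpy 2.4.6, pandas 2.3.3 and statsmodels 0.14.6, and drawn with matplotlib 3.10.9.

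The gene lists, 61 in all, and the markers were chosen with earlier results of these data known. They were written from general knowledge of yeast, and 8 of their symbols matched no gene of the table. The genes named are the 15 brightest, the 3 nearest the middle, the 15 highest and 15 lowest differences with both signals at or above 9.3, extremes of the lists described, and all markers. Not every extreme of a described list is named, and some lists have no member named. Further members were named after their values were seen, to complete a pathway or a pair of isozymes. Alternatives were the pseudocount, 4 other scalings, the filter, the fold, the choice of probe set, the reference set for percentiles and each culture alone. Counting only genes above the boundary on both arrays and only protein-coding genes were chosen after seeing the data. Promoter and protein sequences were not used here.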

Additional observations from a re-analysis of the deposited data

How the results depend on the processing

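No paired analysis was possible because only 1 group, wild type, was described and its 2 cultures share no number with each other. The 37 genes at least 2-fold higher in culture 2 became 15 with a pseudocount of 12.7, 78 with no filter, 14 with a filter of 40% in place of 20%, 285 at 1.5-fold and 19 with both signals above the boundary. The 139 genes at least 2-fold lower became 222 with no filter and 374 at 1.5-fold, and stayed between 98 and 150 under the other alternatives. The split between directions was 34 and 139 with quantile normalization, 28 and 149 with the brightness curve removed, and 55 and 116 with the arrays scaled on hybridisation controls, which moved the median of all genes from 0.04 to 0.14. With the pseudocount of 12.7 the median difference of stress genes was -1.09 and that of trehalose and glycogen genes -0.80. No median of these 2 lists or of the phosphate list changed sign under any alternative run. For ribosomal proteins the percentile was 98.6 with either culture alone and with quantile normalization, 98.5 with the median over probe sets and 98.4 over all probe sets, and the share in the brightest 10% was 93.8% to 95% with 1 culture alone and 93.8% with the median over probe sets. The share of glycolytic genes was 80% to 85% with 1 culture alone. For early meiotic genes the percentile over all probe sets was 12.7 and the share in the dimmest 20% 77.8%. For sporulation genes the percentile was 5.18 to 5.19 with 1 culture alone, 4.32 with a pseudocount of 1, 4.89 with the median over probe sets and 14.0 over all probe sets, and the share in the dimmest 20% was 96.4% with the median over probe sets and 78.6% over all probe sets. The larger percentiles over all probe sets follow from the construction, since the probe sets with no gene listed are dim. With 1 array for each culture, a gene near background cannot be called different, and the number of arrays limits the precision of every difference.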

Other observations

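HST4 lay inside the range of the bacterial and mouse probe sets in both cultures, while HST3 lay above the highest of them in each. USV1, a transcription factor gene, had the largest difference of all genes that passed the filter, -3.82, with 67.7 in culture 1 and a near-background 1.9 in culture 2. YNL194C had 34.4 and 1.3. In the other direction, YNL162W-A had 2.3 and 25 and YHR214C-D had 6.6 and 46.6. These 4 genes had 1 signal below 9.3 and were picked with their values in view.

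The 9 bacterial and phage hybridisation controls that are added to the sample spanned signals from 203 to 7265.3, and 7 of the 9 were lower in culture 2, with a mean log2 difference of -0.10.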
